A study of Mus musculus with 44 samples.

Results

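The 9 genes described here encode insulin-like growth factor ligands (Igf1, Igf2), a receptor (Igf1r) and binding proteins (Igfbp2, Igfbp3, Igfbp4, Igfbp5, Igfbp6, Igfbp7). They were taken by symbol from a table of 23234 genes, and all 9 were present in it. Poly(A) RNA was sequenced from mouse induced leukocyte stem (iLS) cells, blood progenitors of C57BL/6J fetal liver kept multipotent by an Id3-ERT2 fusion, at 16 time points after a change of culture. Before the change the cells grew on TSt-4 stromal feeder cells in 40 nM 4-OHT, the ligand of the ERT2 domain, with IL-7 (20 ng/mL) and, at 10 ng/mL each, Flt-3L and SCF. After it the feeder line was the same, IL-7 was lowered to 5 ng/mL, 4-OHT was left out and neither Flt-3L nor SCF is listed, so that all groups share the fusion, the strain and the feeder line. Groups are times after the change, from 0 to 168 h, with 3 libraries for each of 14 times (0, 0.5, 1, 2, 4, 6, 8, 10, 12, 24, 48, 72, 96 and 144 h) and 1 each for 120 and 168 h, 44 in all. The labels do not say if replicates came from different cultures, and p-values here measure only how far the libraries spread. They also do not say if RNA was taken with the feeder cells still present.

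IGF1 and IGF2 are secreted growth factors that signal through the receptor tyrosine kinase encoded by Igf1r, by way of IRS adaptors, PI3 kinase and Akt. Binding proteins hold the ligands outside the cell and set how much reaches the receptor, and proteases such as that encoded by Pappa release ligand from some of them. Bone marrow stromal cells are a known source of IGF1, which acts together with IL-7 on B-cell precursors in culture.

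FPKM values (fragments per kilobase of transcript and per fixed number of mapped fragments) summed to between 516025 and 701705 in a library, and sequencing depth is unknown. Stromal and blood-cell RNA shifted against each other over the series. The summed FPKM of 23 stromal markers (collagens, Fn1, Sparc and others) was 738 to 2343 at 0 h and already 5868 to 7678 at 0.5 h. It was then 8434 to 9740 at 6 h, 4729 to 8844 at 72 h and 1834 to 3104 at 144 h. Of these markers Lum was listed at 0 in all 44 libraries and Dcn in 43. The sum of 18 general blood-cell markers (Ptprc, Coro1a and others, none at 0 in most libraries) was 2306 ± 293 (SD, n = 3) at 0 h. This sum was 1110 to 1199 at 0.5 h, 709 to 798 at 6 h, 839 to 1496 at 72 h and 1528 to 2015 at 144 h. That of 9 B-lineage markers was 89.5 to 131 at 0 h, 31.6 to 36.7 at 6 h and 1145 to 1485 at 144 h. In such mixed cultures, fewer cells of a type and less RNA per cell cannot be told apart. That of 7 progenitor markers such as Kit and Flt3 was 661 ± 27.1 (SD, n = 3) at 0 h, 376 to 583 at 6 h, 1213 to 1467 at 72 h and 785 to 1086 at 144 h. Of lists for other cell types, 7 macrophage markers summed to 29.1 to 311 FPKM with C1qa listed at 0 throughout, and 5 endothelial markers to 2.42 to 34.8 with Tie1 listed at 0 throughout.

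The gene family was dominated by a pair of binding proteins that moved in opposite directions. Igfbp4 had the highest level of the 9 at 0 h, 178 ± 105 FPKM (SD, n = 3), and Igfbp7 followed at 31.0 ± 24.1 FPKM. At 10 h the order was turned, with Igfbp7 at 250 ± 14.3 FPKM and Igfbp4 at 19.3 ± 5.02 FPKM. Igf1 came next at 0 h with 3.67 ± 1.51 FPKM, and it reached 21.5 ± 1.18 FPKM at 48 h. Its mean was below that of Igf1r at 10 h (6.13 against 6.76 FPKM) and below that of Igf2 at 144 h (4.83 against 7.86 FPKM). At 0 h the libraries of Igfbp4, Igfbp7, Igf1 and Igf2 did not overlap from one gene to the next in this order. Those of Igf2, Igf1r, Igfbp6 and Igfbp5, at means of 1.07, 0.985, 0.800 and 0.145 FPKM, overlapped with their neighbours. At 144 h the libraries of Igfbp4 and Igfbp7 overlapped. Igfbp3 was listed at 0 in all 44 libraries, and Igfbp2 in 43, with 0.192 FPKM in replicate 3 at 6 h. Neither passed the filter of at least 1 FPKM in at least 3 libraries, which 7 of the 9 genes and 13907 genes in all passed.

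**Figure D1:**
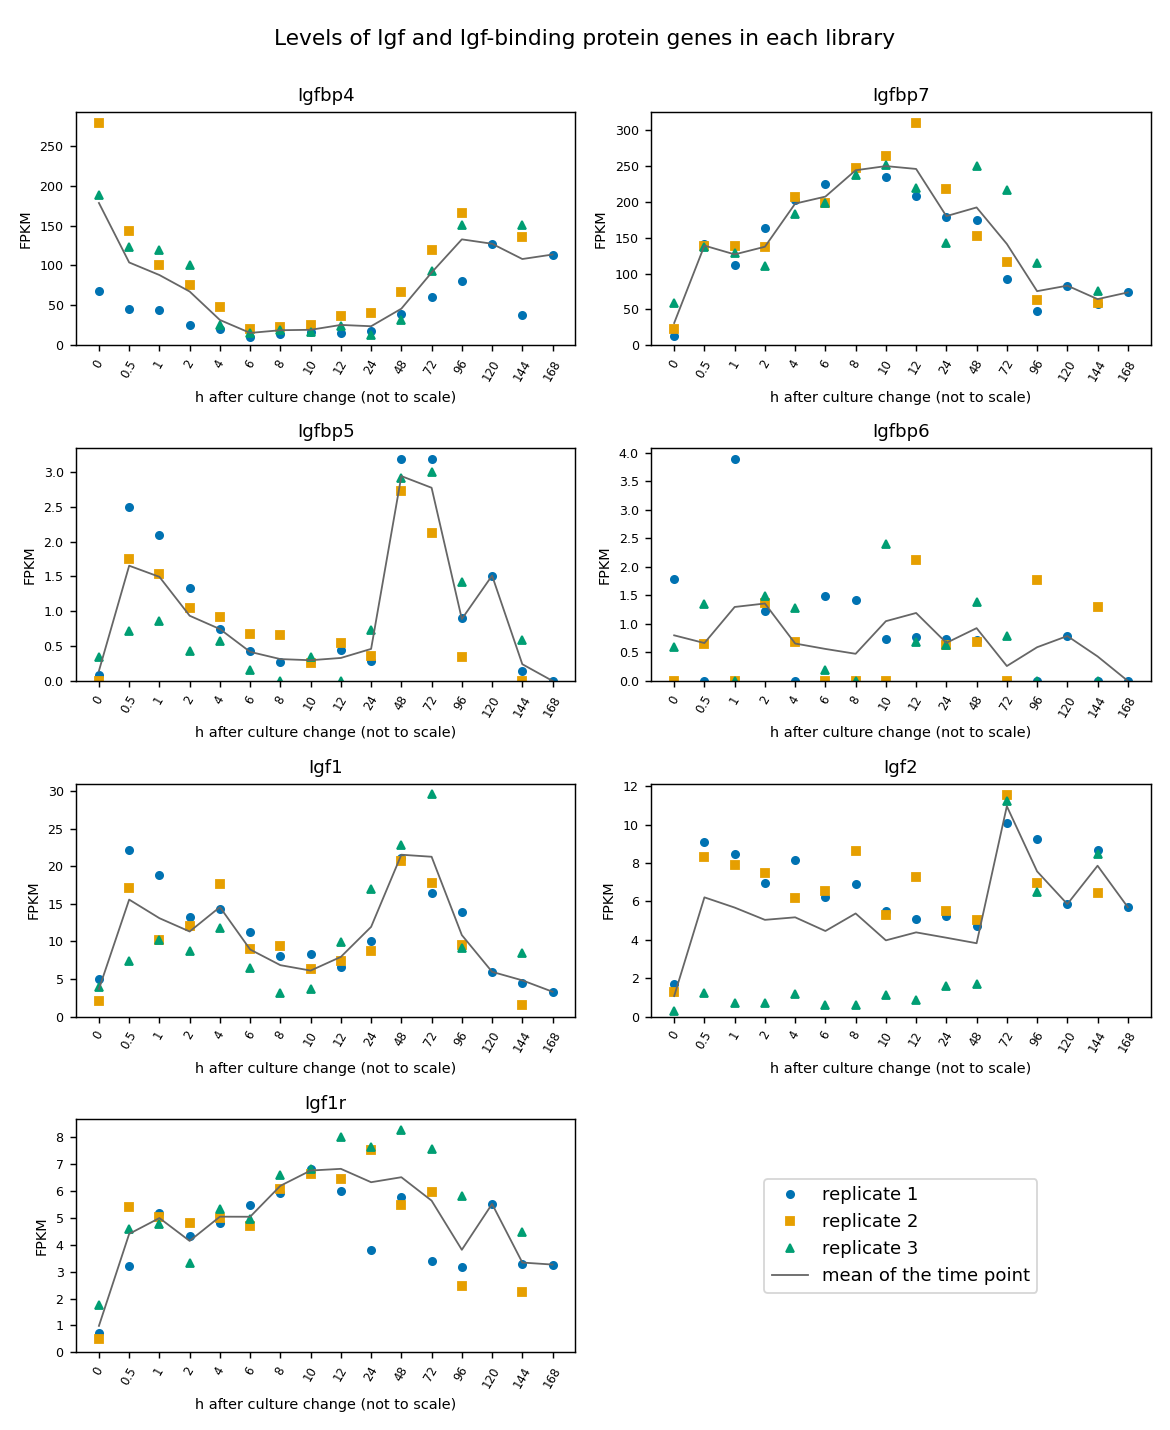
FPKM of the 7 tested genes in each of the 44 libraries against time after the culture change (categories, not to scale). Points are libraries by replicate number, with the single libraries of 120 and 168 h drawn as replicate 1, and the line joins the means. Igfbp4 falls to 10.0 to 20.4 FPKM at 6 h while Igfbp7 rises, Igf1 and Igfbp5 have an early and a late maximum, and Igf2 is low in replicate 3 up to 48 h.

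By the F test of limma on log2(FPKM + 1), 5 of the 7 tested genes differed from 0 h at some later time (Igf1, Igf1r, Igfbp4, Igfbp5 and Igfbp7), where 56% of all tested genes did. Genes were called at a Benjamini-Hochberg adjusted p under 0.05 over all tested genes. At 0.5 h 4 of the 7 were called, all higher, against 21.6% of all genes. At 1 h the same number was called, all higher, where 16.8% of all genes were called higher and 15.3% lower. The median change of the 7 was then 1.40 on the log2 scale, and that of all tested genes -0.08. At 2 h again 4 were higher, beside 35% of all genes called. At 4 h 3 were higher and 1 lower, beside 35% of all genes. Igfbp4 was the gene called lower, here and up to 48 h. At 6 h 3 were higher, against 19% of all genes, and 1 lower, against 19.2%. Counts at 8 h were 2 higher and 1 lower (39.6% of all genes called), and they were the same at 10 h (41.5% called). At 12 h 3 were higher and 1 lower, with 41.9% of all genes called. The counts at 24 h were also 3 higher, against 20.8% of all genes, and 1 lower, against 22.5%. At 48 h 4 were higher and 1 lower, with 38.4% of all genes called. At 72 h 5 were called, all higher, where 17.2% of all genes were higher and 8.23% lower, and the median change of the 7 was 1.74 beside 0.04 for all genes. At 96 h 3 were higher, with 10.3% of all genes called. At 144 h Igf1r and Igfbp7 were the 2 called genes, both higher, where 5.64% of all genes were higher and 3.24% lower, and the median of the 7 was 0.19 beside 0.03 for all genes. These comparisons share the 0 h libraries and are not independent of each other.

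**Figure D2:**
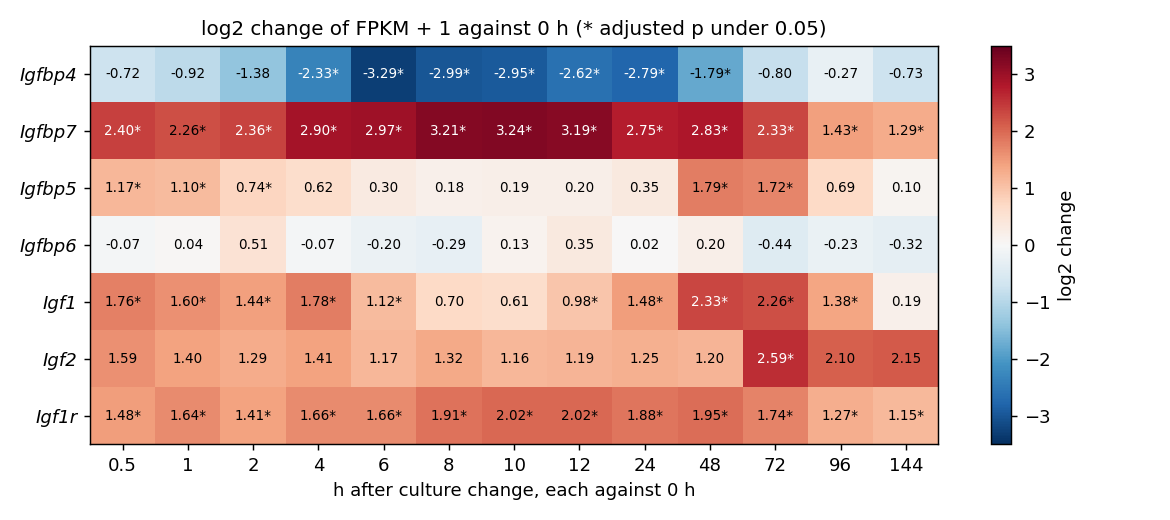
Change in log2(FPKM + 1) of each tested gene at 13 later time points against 0 h, as fitted with limma (3 libraries per time point). Red is higher and blue lower than at 0 h, and an asterisk marks an adjusted p under 0.05. The early fall of Igfbp4 reaches -3.29 at 6 h and the rise of Igfbp7 3.24 at 10 h.

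Id3, the active part of the fusion, binds E proteins and keeps them from short DNA motifs called E-boxes. The stretch before the transcription start is shown with its E-boxes for 4 genes chosen for their courses. Igf1r and Igfbp7 moved together, Igfbp4 moved against both, and Igfbp5 had 2 maxima. The sequences are from RefSeq (GRCm38.p6, while the study's files used mm9), which matched all 9 genes. All run 5′ to 3′ on the gene's strand and, except that of Igfbp5, up to the last base before the start. They lie at chr7:67952007-67952256 (plus strand), chr11:99040994-99041243 (plus), chr1:72874885-72875115 (minus, 231 bases, without those that overlap an annotated exon) and chr5:77408046-77408295 (minus). The exon bases left out for Igfbp5 lie next to the start, so its printed sequence ends short of the start. Capitals mark matches to the E-box CANNTG, the AP-1 motif TGANTCA or the TATA box TATAAA, searched on both strands.
Igf1r: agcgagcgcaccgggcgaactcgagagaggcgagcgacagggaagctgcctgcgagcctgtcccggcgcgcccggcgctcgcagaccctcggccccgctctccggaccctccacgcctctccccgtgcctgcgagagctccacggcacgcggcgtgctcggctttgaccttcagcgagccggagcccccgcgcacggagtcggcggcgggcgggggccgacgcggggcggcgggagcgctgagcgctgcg
Igfbp4: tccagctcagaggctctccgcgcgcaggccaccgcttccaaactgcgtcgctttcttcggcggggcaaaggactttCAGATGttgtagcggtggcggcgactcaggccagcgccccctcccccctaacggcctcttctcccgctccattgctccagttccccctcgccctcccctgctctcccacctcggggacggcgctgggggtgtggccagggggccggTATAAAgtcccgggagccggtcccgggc
Igfbp5: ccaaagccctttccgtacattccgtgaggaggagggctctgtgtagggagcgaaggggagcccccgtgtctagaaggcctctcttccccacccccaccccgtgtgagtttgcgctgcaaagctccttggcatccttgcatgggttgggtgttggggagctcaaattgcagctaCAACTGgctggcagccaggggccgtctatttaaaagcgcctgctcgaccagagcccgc
Igfbp7: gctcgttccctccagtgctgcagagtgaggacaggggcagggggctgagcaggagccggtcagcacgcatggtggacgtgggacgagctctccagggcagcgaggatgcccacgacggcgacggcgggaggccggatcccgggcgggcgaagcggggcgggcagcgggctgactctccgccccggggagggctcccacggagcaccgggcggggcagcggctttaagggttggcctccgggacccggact
In these windows Igfbp4 had an E-box starting 174 bases before the start and a TATA box 28 bases before it. Igfbp5 had an E-box 77 bases before the start, counted with the bases left out. Igf1r and Igfbp7 had no match to any of the 3 motifs. Of 32851 such windows of 250 bases, 66.2% held an E-box, 17.2% the form CAGGTG or CACCTG, which none of these 4 held, 6.75% the AP-1 motif and 12.4% the TATA box. The G and C content was 77.6% for Igf1r, 74% for Igfbp7, 69.2% for Igfbp4 and 58.8% for Igfbp5, with a median of 52.4% over all windows. A match is a description of letters and not a measured site.

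Igf1, the ligand made by many mesenchymal cells, was called higher than at 0 h from 0.5 to 6 h. It was not called at 8 and 10 h and had a second maximum at 48 and 72 h. At 0 h its libraries held 5.03, 2.03 and 3.94 FPKM in replicates 1, 2 and 3. At 0.5 h they held 22.2, 17.1 and 7.37 FPKM. The 4 h libraries still held 11.8 to 17.6 FPKM (log2 change 1.78, limma adjusted p = 0.000672). At 10 h they were at 8.32, 6.38 and 3.69 FPKM, which overlapped those of 0 h. A later maximum followed, higher in all libraries than at 0 h or 10 h. It reached 21.1, 20.7 and 22.9 FPKM at 48 h and 16.4, 17.8 and 29.6 FPKM at 72 h. By 144 h the values were 4.42, 1.58 and 8.49 FPKM, which again overlapped those of 0 h, and the single libraries stood at 5.96 FPKM at 120 h and 3.31 FPKM at 168 h. On the log2 scale the change from 0 h was 1.60 ± 0.40 (SE) at 1 h (limma, adjusted p = 0.0024), 2.33 ± 0.40 at 48 h (adjusted p = 1.96e-05) and 0.19 ± 0.40 at 144 h (adjusted p = 0.86). From 72 to 144 h Igf1 fell by 2.08 (adjusted p = 0.00128), which was not called without replicate 2 at all times (-1.69, adjusted p = 0.163). The dip between the maxima did not pass the test, since 10 h against 0.5 h gave -1.15 ± 0.40 (limma, adjusted p = 0.0678). This comparison was chosen after the values were seen. Without replicate 3 at 0.5 h it was called (-1.58, adjusted p = 0.0186). Leaving out any other single library of these times gave no call (adjusted p from 0.06 to 0.293). The step from 24 to 72 h was not called either, with 0.79 ± 0.40 (limma, adjusted p = 0.205) and libraries that overlapped. The call at 1 h was lost without replicate 1 (adjusted p = 0.0558) or replicate 2 (0.0697) at every time. The rise at 6 h (1.12, adjusted p = 0.0253) was not called when replicate 2 at 0 h (adjusted p = 0.15), replicate 1 at 6 h (0.104) or replicate 2 at 6 h (0.063) was left out.

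Set against the stromal marker sum, Igf1 had a different course from its FPKM. Per 100 FPKM of stromal markers, the 0 h libraries held 0.342 ± 0.294 FPKM of Igf1 and those of 10 h 0.0628 ± 0.0273. The 0.5 h libraries held 0.223 ± 0.0974 (0.126 to 0.320), with a mean under that of 0 h and values that overlapped it. Those of 72 h held 0.315 ± 0.0442 and those of 144 h 0.178 ± 0.0937. The 0 h value rests largely on replicate 1, at 0.681, while the lowest library was at 0.168. At 10 h all 3 libraries (0.0376 to 0.0917) lay below all 3 of 0 h and all 3 of 72 h (0.265 to 0.347). When the whole table was scaled to the stromal markers, which moved the median of all genes to -2.29 at 6 h, the change of Igf1 from 0 h was -1.08 at 6 h (adjusted p = 0.018) and 0.51 at 72 h (adjusted p = 0.26). The direction of Igf1 at 6 h therefore differs between FPKM and FPKM relative to stroma.

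Igf2, the ligand of the fetal growth period, was split by replicate number up to 48 h. In replicates 1 and 2 it was at 1.68 and 1.26 FPKM at 0 h and at 9.10 and 8.29 FPKM at 0.5 h. In replicate 3 it was at 0.281 FPKM at 0 h and 1.25 FPKM at 0.5 h. From 0.5 to 48 h the 10 libraries of replicate 3 ranged from 0.600 to 1.72 FPKM, with no overlap with those of replicate 1 (4.71 to 9.10 FPKM) or replicate 2 (5.04 to 8.64 FPKM). At 72 h the difference was gone, with 10.1, 11.6 and 11.2 FPKM in replicates 1, 2 and 3. At 144 h the libraries held 8.69, 6.42 and 8.47 FPKM, and the single ones 5.86 FPKM at 120 h and 5.70 FPKM at 168 h. Both sides of this step in replicate 3 lie within 1 run of consecutive library codes, which holds its libraries from 8 to 144 h. The single libraries of 120 and 168 h, titled replicate 1, lie in this run too, apart from the other replicate 1 libraries.

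The spread gave Igf2 an SE of 0.76 on the log2 scale. With replicate number as an added term in the fit (a block), 1, 6, 24, 72 and 144 h were called against 0 h (limma, adjusted p from 2.02e-05 to 0.0258). In the main fit, without blocks, only 72 h was called against 0 h (2.59, limma adjusted p = 0.0105). At 1 h the change was 1.40 (adjusted p = 0.162) and at 144 h 2.15 (adjusted p = 0.0727), although the 144 h libraries did not overlap those of 0 h. Without replicate 3 at every time, an alternative chosen after its values were seen, Igf2 rose by 1.90 at 1 h (adjusted p = 9.41e-07) and by 1.58 at 6 h (adjusted p = 6.76e-06). The rise was then 1.37 at 24 h (adjusted p = 3.56e-05) and 1.78 at 144 h (adjusted p = 1.94e-05). Leaving out the number with the low values narrows the spread by itself, so these limma p-values are a description and not a test. Within the runs of library codes that hold both times, the change at 1 h was 1.82 in replicate 1, 1.97 in replicate 2 and 0.40 in replicate 3. At 6 h it was 1.44, 1.73 and 0.34 in the same order. The call at 72 h was lost without replicate 1 (2.86, adjusted p = 0.0704) or replicate 2 (2.65, adjusted p = 0.12) at every time. Scaled to the stromal markers, Igf2 was not called at 72 h (1.23, adjusted p = 0.118) and was called at 144 h (1.90, adjusted p = 0.0375). Its scaled values at 1, 6 and 24 h were -0.10, -0.55 and -0.32, opposite in sign to those in FPKM and not called.

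The genes whose pattern was most like that of Igf2 over the 42 libraries of replicated times were the complement gene C4b (Pearson r = 0.908), the guanylate-binding protein gene Gbp6 (0.896) and the complement gene C4a (0.895). C4b shared the low level of replicate 3, with a median of 1.29 FPKM from 0.5 to 48 h against 10.6 and 11.8 FPKM in replicates 1 and 2. Unlike Igf2, its replicate 3 libraries (up to 9.17 FPKM) overlapped those of replicate 1 (from 5.31 FPKM) and replicate 2 (from 8.48 FPKM). In replicate 3 it then stood at 25.2 to 50.0 FPKM at 72, 96 and 144 h. H19, the noncoding RNA gene next to Igf2 in the same imprinted region, was looked at after these values were known and differed between replicates in another order. Its median from 0.5 to 48 h was 12.5 FPKM in replicate 1, 1.22 FPKM in replicate 2 and 0.240 FPKM in replicate 3. From 72 h on H19 was at 10.7 to 199 FPKM over the 9 libraries, and no comparison of it with 0 h was called (144 h, 3.38 ± 1.23, adjusted p = 0.0833). The antisense gene Igf2as reached at most 0.632 FPKM, and the library kit named in the labels is not said to keep strand.

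Igf1r, which encodes the signalling receptor for both ligands, rose at once and stayed up. Its libraries held 0.703, 0.499 and 1.75 FPKM at 0 h. At 1 h they held 5.17, 5.03 and 4.78 FPKM, all above those of 0 h. They were at 6.83, 6.62 and 6.83 FPKM at 10 h, and at 3.30, 2.26 and 4.46 FPKM at 144 h, still without overlap with 0 h. All 13 later times were called higher than 0 h, with changes of 1.64 ± 0.26 at 1 h (adjusted p = 1.04e-05), 2.02 ± 0.26 at 10 h (adjusted p = 1.92e-07) and 1.15 ± 0.26 at 144 h (adjusted p = 0.00376). The call at 144 h was lost without replicate 1 (adjusted p = 0.0854) or replicate 2 (adjusted p = 0.115) at every time. Per 100 FPKM of stromal markers Igf1r held 0.0712 ± 0.0261 FPKM at 0 h and 0.0557 ± 0.00647 at 6 h, which overlapped, and then 0.133 ± 0.0104 at 144 h, above all libraries of 0 h. Scaled to stroma, the change was 0.01 at 6 h (adjusted p = 0.961) and 0.90 at 144 h (adjusted p = 0.00339).

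Igfbp7, a secreted protein that binds IGFs weakly and is deposited in vessel and stromal matrix, rose within 0.5 h and stayed high to 72 h. Its libraries held 12.8, 21.9 and 58.3 FPKM at 0 h. They held 141, 139 and 137 FPKM at 0.5 h and 235, 263 and 251 FPKM at 10 h. All libraries of 0.5 to 72 h were above the highest of 0 h. The values then came down to 91.8, 116 and 216 FPKM at 72 h and 57.8, 58.8 and 76.2 FPKM at 144 h, where the lowest was just under the highest of 0 h. The log2 change was 2.40 ± 0.33 at 0.5 h (adjusted p = 2.18e-06), 3.24 ± 0.33 at 10 h (adjusted p = 3.08e-09) and 1.29 ± 0.33 at 144 h (adjusted p = 0.00979). Within the 3 runs of library codes that hold both times, the rise at 6 h was 4.04, 3.12 and 1.75. The call at 144 h was lost without replicate 1 at 0 h (0.81, limma adjusted p = 0.157), replicate 2 at 0 h (0.0557) or replicate 3 at 144 h (0.0604). It was also lost without replicate 1 or replicate 2 at every time, and with only these 2 time points in the fit. The fall from 72 to 144 h (-1.04, limma adjusted p = 0.0357) lost its call without replicate 3 at 72 h (-0.69, adjusted p = 0.304). Leaving out replicate 2 at every time ended that call too.

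The ratio of Igfbp7 to the stromal markers moved little beside its FPKM. Per 100 FPKM of stromal markers the means of the replicated times lay between 1.78 FPKM (1 h) and 2.65 FPKM (144 h), and the single library of 168 h was at 3.47. The 0 h libraries held 2.04 ± 0.396, those of 6 h 2.29 ± 0.224 and those of 72 h 2.04 ± 0.369, and these overlapped each other. Its log2 level correlated with the mean of the stromal markers at r = 0.973 over 42 libraries, which share the marker sums, the time course and their preparation. Scaled to stroma, the change from 0 h was 0.14 at 1 h (adjusted p = 0.517), 0.49 at 6 h (adjusted p = 0.0202) and 0.51 at 144 h (adjusted p = 0.0374). The genes most like Igfbp7 were Anxa2 (r = 0.978), Qsox1 (0.975) and the collagen gene Col5a1 (0.975), and those most like Igf1r were Fn1 (0.943), Slit2 (0.943) and Dmpk (0.942). Col5a1 and Fn1 are themselves stromal markers here. Igf1r and Igfbp7 correlated with each other at r = 0.89.

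**Figure D3:**
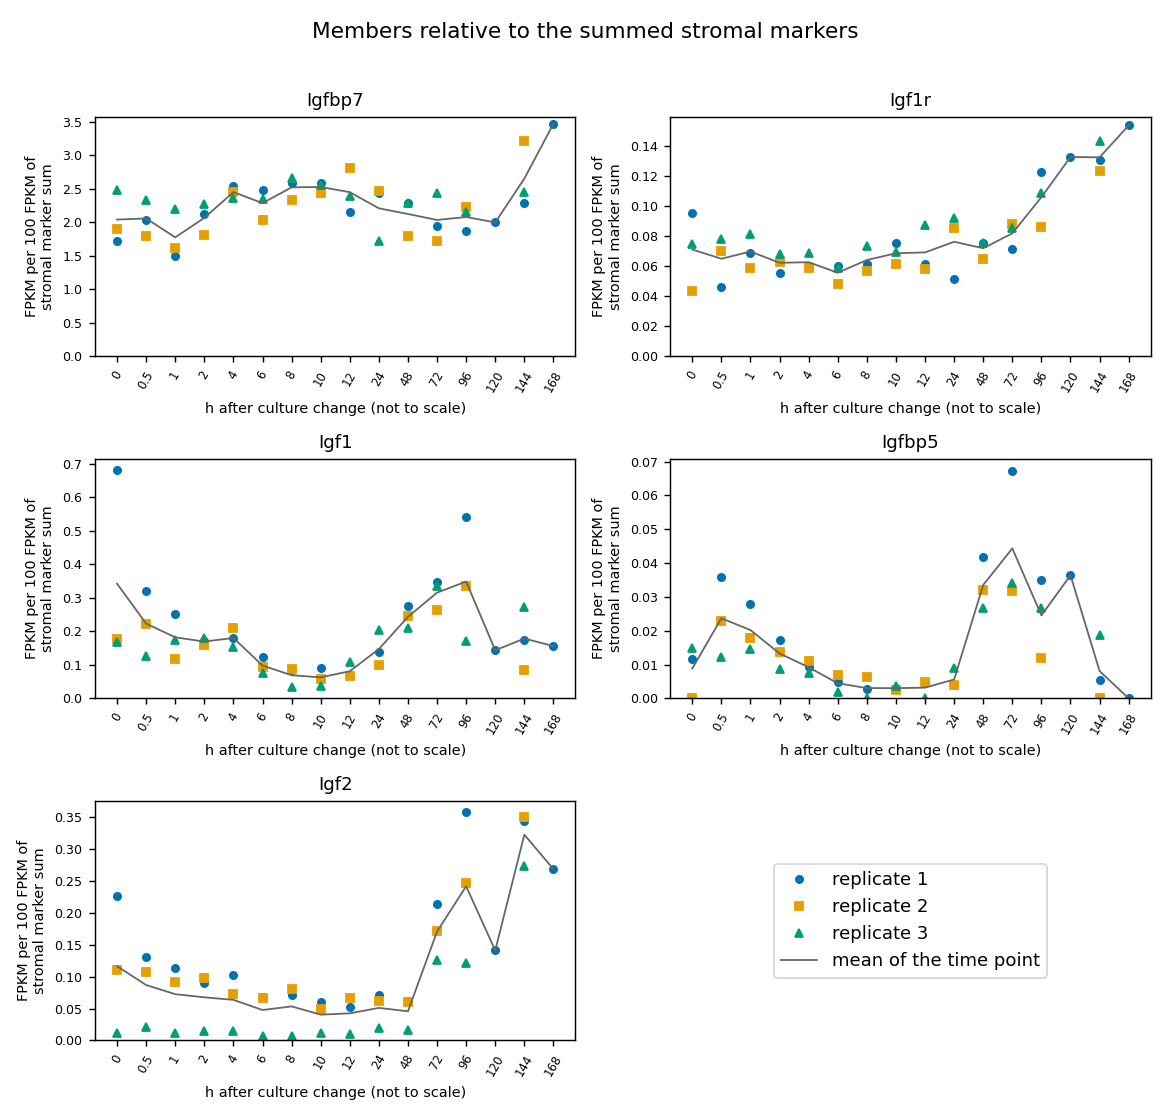
FPKM of 5 genes per 100 FPKM of the summed stromal markers in each library, against time after the culture change (categories, not to scale). Points are libraries by replicate number (120 and 168 h are single libraries) and lines join the means. The means of Igfbp7 at replicated times lie between 1.78 and 2.65, Igf1r rises late, and Igf1 and Igfbp5 dip between 6 and 24 h.

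Igfbp5, a binding protein that attaches to extracellular matrix, had an early and a late maximum, as Igf1 did, at a lower level. It was at 0.0862, 0 and 0.348 FPKM at 0 h, with replicate 2 listed at 0. At 0.5 h it was at 2.50, 1.75 and 0.722 FPKM, all above 0 h. By 10 h it was back to 0.282, 0.263 and 0.347 FPKM, which overlapped 0 h. At 48 h the libraries reached 3.19, 2.72 and 2.92 FPKM, and at 72 h 3.19, 2.13 and 3.01 FPKM. At 144 h they held 0.139, 0 and 0.581 FPKM, and the single libraries 1.51 FPKM at 120 h and 0 at 168 h. The log2 change from 0 h was 1.17 ± 0.27 at 0.5 h (adjusted p = 0.00148), 0.30 ± 0.27 at 6 h (adjusted p = 0.393), 1.79 ± 0.27 at 48 h (adjusted p = 2.52e-06) and 0.10 ± 0.27 at 144 h (adjusted p = 0.896).

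The steps between the maxima of Igfbp5 were tested directly. From 0.5 to 10 h, a comparison chosen after the values were seen, Igfbp5 changed by -0.97 ± 0.27 (adjusted p = 0.0191) and Igfbp4 by -2.23 ± 0.56 (adjusted p = 0.0101). They were the 2 of 7 genes called there, with 8.13% of all genes called. Leaving out replicate 1 or 2 at 0.5 h or any library at 10 h ended the call of Igfbp5 (adjusted p from 0.0522 to 0.125), and leaving out replicate 2 at 0.5 h (adjusted p = 0.0737) or replicate 3 at 10 h (0.0511) ended that of Igfbp4. From 24 to 72 h Igfbp5 rose by 1.37 (adjusted p = 0.00165), and from 72 to 144 h it fell by 1.62 (adjusted p = 0.000294). Without replicate 1 at every time the rise had an adjusted p of 0.0706, and without replicate 2 the fall had one of 0.081. Relative to stroma the late maximum remained, with 0.0444 ± 0.0200 FPKM per 100 FPKM of stromal markers at 72 h (0.0317 to 0.0674). This was above all libraries of 0 h (at most 0.0148), and the scaled change was 1.41 (limma, adjusted p = 4.2e-05). For the early maximum the 0.5 h libraries held 0.0237 ± 0.0119 (0.0123 to 0.036), which overlapped those of 0 h. Those of 1 h (0.0146 to 0.028) overlapped 0 h too. Replicate 3 was no higher at 0.5 h (0.0123) or 1 h (0.0146) than at 0 h (0.0148). The scaled change at 1 h was 0.69 (limma, adjusted p = 0.0265). Unscaled, the change at 1 h was 1.10 (limma, adjusted p = 0.00178). That call was lost without replicate 1 (adjusted p = 0.11) or replicate 2 (0.0857) at every time.

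Igfbp5 and Igf1 correlated at r = 0.825 over the 42 libraries, and Igfbp5 was among the 3 genes most like Igf1, with Ms4a4d (0.86) and the cadherin gene Cdh19 (0.821). The genes most like Igfbp5 were Sned1 (0.874), Ggt5 (0.851) and Spon2 (0.849). These coefficients describe libraries that share time and stromal content.

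Igfbp4, a soluble binding protein that keeps IGFs from their receptor and is a substrate of the Pappa protease, fell early and came back late. At 0 h it was at 68.5, 279 and 188 FPKM in replicates 1, 2 and 3. At 1 h it was at 43.6, 101 and 120 FPKM, and at 6 h at 9.95, 20.4 and 15.9 FPKM. The 6 h libraries were all under those of 0 h, while those of 1 h overlapped them. It remained at 18.0, 40.0 and 13.4 FPKM at 24 h. The level had returned to 60.9, 120 and 92.6 FPKM at 72 h and 81.1, 166 and 151 FPKM at 96 h, which overlapped 0 h. Values at 144 h were 37.7, 135 and 151 FPKM, and the single libraries held 127 FPKM at 120 h and 114 FPKM at 168 h. Replicate 1 was the lowest of the 3 at 11 of the 14 replicated times.

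The log2 change of Igfbp4 from 0 h was -0.92 ± 0.56 at 1 h (adjusted p = 0.216), -2.33 ± 0.56 at 4 h (adjusted p = 0.00135), -3.29 ± 0.56 at 6 h (adjusted p = 1.87e-05) and -2.79 ± 0.56 at 24 h (adjusted p = 0.000135). Within the runs of library codes the change at 6 h was -2.67, -3.71 and -3.49. At 144 h it was -0.73 ± 0.56 (adjusted p = 0.502). The rise from 24 to 72 h was 1.99 ± 0.56 (adjusted p = 0.0209), and its call was lost without replicate 3 at 24 h (1.67, adjusted p = 0.162), replicate 2 at 72 h (adjusted p = 0.0815) or replicate 3 at 72 h (adjusted p = 0.053).

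The blood-cell markers fell over the same hours as Igfbp4. Per 100 FPKM of blood-cell markers, Igfbp4 was at 7.74 ± 4.25 FPKM at 0 h and 8.83 ± 4.21 after 0.5 h. It was lowest at 6 h, with 2.05 ± 0.727, and then at 4.31 ± 2.05 (24 h) and 8.67 ± 3.98 (72 h). At 6 h all 3 libraries (1.25 to 2.66) were under the lowest of 0 h (2.90), which was replicate 1, whereas those of 24 h overlapped it. Scaled to the blood-cell markers, where the median of all genes was 1.17 (6 h) and 1.64 (24 h), the change of Igfbp4 was -1.74 at 6 h (adjusted p = 0.00833) and -0.72 at 24 h (adjusted p = 0.252). The genes most like Igfbp4 were Ifitm1 (r = 0.949), the phosphatase gene Ptprs (0.912) and Egfl7 (0.906), and its r with Igfbp7 was -0.638.

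**Figure D4:**
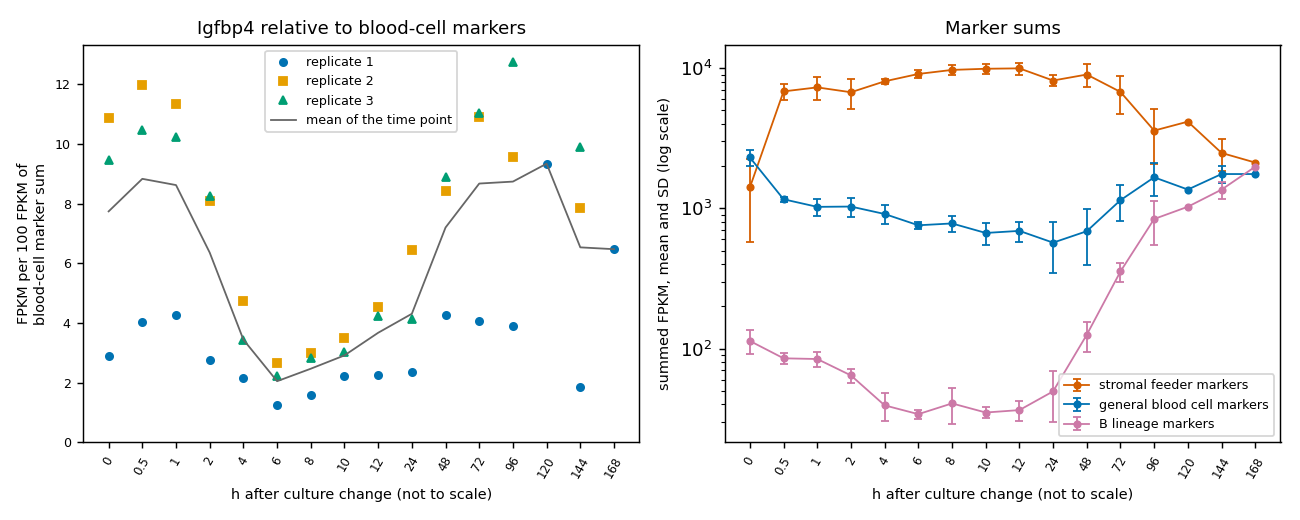
Left, FPKM of Igfbp4 per 100 FPKM of the summed blood-cell markers in each library. Right, summed FPKM of the stromal, blood-cell and B-lineage markers on a log scale (mean and SD of 3 libraries, 1 library at 120 and 168 h), both against time in categories. The ratio of Igfbp4 has its lowest mean, 2.05, at 6 h and is back at 8.67 at 72 h.

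Igfbp6, which prefers IGF2, was low and scattered. It was listed at 0 in 16 of 44 libraries and reached 3.89 FPKM in replicate 1 at 1 h, where replicates 2 and 3 were listed at 0. No time was called against 0 h (F test of limma, adjusted p = 0.924), and the libraries of every later replicated time overlapped those of 0 h. The highest likeness of any gene to it was r = 0.472.

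Between successive phases at most 3 of the 7 genes were called. From 6 to 24 h none was called by limma, none had an unadjusted p under 0.05, and 2.08% of all genes were called. From 24 to 72 h 2 were called, Igfbp4 and Igfbp5, both higher, with 10.4% of all genes called. From 72 to 144 h 3 were called, Igf1, Igfbp5 and Igfbp7, all lower, with 10.8% of all genes called. Stromal markers fell in this last step too, with 16 of 21 tested ones lower.

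Receptors and adaptors around Igf1r were 11 genes, of which 8 were tested. At 1, 6 and 24 h 6 of the 8 were called higher and 1 lower, at 72 h 5 and 1, and at 144 h 1 and 1. Of all genes 16.8, 19, 20.8, 17.2 and 5.64% were higher at these 5 times, and 15.3, 19.2, 22.5, 8.23 and 3.24% lower. The median change of the 8 at 24 h was 1.11, beside -0.06 for all genes. Grb10, an adaptor that restrains IGF and insulin receptor signalling, was at 11.7 ± 4.90 FPKM at 0 h and 71.5 ± 13.7 FPKM at 24 h (log2 change 2.57 ± 0.25, adjusted p = 3.95e-09). Its relative Grb14 rose by 2.11 ± 0.38 at 1 h (adjusted p = 7.36e-05), and Irs1, the main docking adaptor, by 1.84 ± 0.25 at 24 h (adjusted p = 5.15e-07). Gab1, another docking protein, rose by 1.60 ± 0.26 at 24 h (adjusted p = 9.13e-06). The gene lower at all 5 times, named after its values were seen, was the insulin receptor gene Insr, at 8.47 ± 1.53 FPKM at 0 h and 2.96 ± 0.244 FPKM at 24 h (-1.25 ± 0.19, adjusted p = 2.17e-06). Igf2r, the receptor that clears IGF2 and also seen before it was chosen, was not called at any of the 5 times, with 13.4 ± 7.28 FPKM at 0 h and 11.8 ± 1.78 FPKM at 24 h.

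All 14 genes of the PI3 kinase, Akt and Tor list were tested. Those called lower numbered 3 (1 h), 7 (6 h), 6 (24 h) and 1 (72 h). Among all genes the shares lower were 15.3, 19.2, 22.5 and 8.23%, so the counts at 1 and 72 h are near the background. Those called higher numbered 1 at each of these times except 24 h, with 2, and 1 at 144 h. Among all genes the shares higher were 16.8% (1 h), 19% (6 h), 20.8% (24 h), 17.2% (72 h) and 5.64% (144 h). These counts of higher genes are thus near or under the background. The median of the 14 at 24 h was -0.22. Pik3cd, the catalytic subunit typical of white blood cells, was at 93.0 ± 16.1 FPKM at 0 h and 18.4 ± 11.1 FPKM at 24 h, and it fell by 2.50 on the log2 scale (adjusted p = 5.56e-07). The regulatory subunit gene Pik3r2 fell by 1.02 at 6 h (adjusted p = 0.000101) and Mtor, the kinase of the Tor complexes, by 0.82 at 24 h (adjusted p = 0.000463). Pik3cb, the broadly expressed catalytic subunit, rose by 0.82 at 24 h (adjusted p = 0.0189), with libraries that overlapped those of 0 h. Blood-cell markers fell at the same times, 17 of 18 at 24 h, and their part in these falls was not tested.

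A list drawn up for IGF availability held 13 genes, of which 9 were tested. Besides proteases and their inhibitors it held other genes, among them some for proteins with an IGFBP-type domain and the noncoding H19. At 1, 24 and 72 h 4 of the 9 were called higher, and at 6 h 3, where 16.8% (1 h), 19% (6 h), 20.8% (24 h) and 17.2% (72 h) of all genes were. At 144 h no gene of the list was called by limma, with 2 at an unadjusted p under 0.05. The median of the 9 at 24 h was 0.56. Adam12, a metalloprotease that can cut binding proteins, was at 1.22 ± 0.711 FPKM at 0 h and 16.1 ± 1.61 FPKM at 6 h (2.99 ± 0.25, adjusted p = 9.65e-11). Kazald1, which has an IGFBP-type domain, rose by 1.85 ± 0.41 at 1 h (adjusted p = 0.000786). Pappa, the protease that acts on IGFBP4, was at 0.964 ± 0.760 FPKM at 0 h and 4.03 ± 0.542 FPKM at 24 h (1.42 ± 0.24, adjusted p = 1.54e-05). Pappa2, its homolog, rose by 1.00 ± 0.25 at 24 h (adjusted p = 0.00151). All 21 tested stromal markers were higher at 1, 6, 24 and 72 h, and their part in the rises of these lists was not tested.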

How the data were processed

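The deposited table held 1 FPKM value per gene and library, made by the authors from poly(A) RNA and called corrected in its name; what was corrected is not stated. TopHat2 2.1.0, Cufflinks 2.1.1 and the mm9 build are named per the submitters' processing notes. Replicates were taken from the sample titles and columns matched by library code. With no counts, depth is unknown, no counting interval is given and an exact 0 is written as listed at 0.

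Values were taken as log2(FPKM + 1). Genes that reached 1 FPKM in 3 or more of 42 libraries (14 time points with 3 libraries) were modelled in R 4.3.3 using limma 3.58.1, with 1 mean per time point and eBayes with a mean-variance trend, and p-values were adjusted by Benjamini-Hochberg over all 13907 tested genes within each contrast. Errors are SD for FPKM and SE for log2 changes, and log2(FPKM + 1) understates the change of low genes. A permutation of 3 against 3 libraries cannot go below p = 0.1. The scripts were checked on simulated data.

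All 9 genes are named, with up to 4 called genes per pathway list having the largest change at 1, 6, 24, 72 or 144 h, and the 3 tested genes with the highest Pearson r to each tested member; genes outside this rule are marked as such. The genes, marker and pathway lists were chosen with earlier results of these data known. The result of 1 further marker list is not reported here. Alternatives covered the pseudocount, the filter, scaling (quantile, median-ratio, blood-cell or stromal markers), a stromal covariate, blocks, a 2-fold minimum, fits of 2 time points, and leaving out libraries. Promoter windows were read from the RefSeq table and compared with GENCODE exons of the same build.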

Additional observations from a re-analysis of the deposited data

How the results depend on the processing

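Of 1075 recomputed log2 changes (63 results), 956 stayed on the same side of the threshold (62 of them uncalled with the other sign), 82 lost their call, 30 gained one and 7 reversed. Scaling to stromal markers moved the median of all genes to -2.06, -2.29, -2.12, -1.80 and -0.71 at 1, 6, 24, 72 and 144 h and scaling to blood-cell markers to 0.82, 1.17, 1.64, 0.86 and 0.34; of all called genes 2.3 to 8.3% were then higher with the former and 87.9 to 99.5% with the latter, against 48 to 67.6% unscaled, so changes there are read against those shifts. The changes of Igf1 reversed when scaled to stroma, to -0.29, -1.08 and -0.53 at 1, 6 and 24 h. With the stromal mean as covariate, Igf1 (-0.0001) and Igf1r (-0.17) at 6 h and Igfbp5 (-0.016) and Igfbp7 (-0.24) at 1 h reversed. That covariate differs between 0 h and every later time, and called only 35, 22, 11, 4 and 531 of all genes at 1, 6, 24, 72 and 144 h.

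Members called at 1, 24, 72 and 144 h (4, 4, 5 and 2) numbered 2, 2, 3 and 4 scaled to stroma, where 11371, 11546, 11228 and 5747 of 13907 genes were called, and 1 at 144 h scaled to blood cells. With the covariate 0 were called at 1, 6, 24, 72 and 144 h (at an unadjusted p under 0.05, 0, 1, 1, 0 and 1 by limma) and 3 by the F test. With a 2-fold minimum 1, 2, 1 and 0 were called at 1, 6, 72 and 144 h, and with only 2 time points in the fit 0 at 144 h (2 unadjusted). Leaving out libraries gave 2 to 5 at 1 h, 3 to 5 at 6 h, 4 to 5 at 24 h and 72 h, 0 to 3 at 144 h, 1 to 3 for 72 against 24 h, 0 to 4 for 144 against 72 h and 0 to 3 for 10 against 0.5 h, and the causes were not tested. Where these fits called 0, 3 to 5 members had an unadjusted p under 0.05. The fits without 1 replicate number at every time and the comparison of 10 with 0.5 h were chosen after seeing the data.

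Replicate numbers were not taken to pair the libraries, since the labels do not say what a number marks. Deviations from the group means correlated at only -0.063 to 0.142 for the same number and -0.183 to 0.075 for other numbers. Yet 14 of 15 later libraries were closest to the 0 h library of their own number. Library codes were also consecutive within replicates 1 and 2 from 0 to 24 h and within replicate 3 from 0 to 6 h. The main fit leaves out any such pairing. The replicate block gave 6, 5, 5, 5 and 3 called members at 1, 6, 24, 72 and 144 h and 6 by the F test, with Igf2 called at 1 h (adjusted p = 0.00983), 6 h (0.0258), 24 h (0.0152) and 144 h (0.000716) and for 72 against 24 h (0.0298), and Igfbp4 at 1 h (0.027). It changed no other call of a member at 1, 6, 24, 72 or 144 h against 0 h, for 24 against 6 h, 72 against 24 h, 144 against 72 h or 10 against 0.5 h, and was not run for the other times. With the runs of library codes as blocks, Igf2 was called by limma at 1 h (1.40, adjusted p = 0.000141), 6 h (0.000749) and 24 h (0.000944). Igfbp4 was called at 1 h (0.0182). Igf2 was also called at 144 h (3.12, 1.25e-06), but no run holds both 0 and 144 h. That value is linked to 0 h only through the run with replicate 3 from 8 to 144 h, where Igf2 made its step. It is therefore not comparable with those at 1, 6 and 24 h. The table holds no counts, so what depth limits could not be measured.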
